A study of Mus musculus with 6 samples.

Results

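Genes that carry new proteins into the endoplasmic reticulum (ER), cut and glycosylate them there and move them to the Golgi were measured in mouse islets of Langerhans. The rule for them uses gene symbols and no measured value, though the set was picked with earlier results of these data known. It takes the Ssr, Sec61, Sec62, Sec63, Spcs, Sec11, Srp, Srpr, Ost4, Ostc, Dad1, Rpn1, Rpn2, Ddost, Tmed and Kdelr genes. It found 45 of the 24407 genes in the count table. All mice were C57BL/6, 70 weeks old and fed regular chow, with no treatment named. One group was wild type (WT). The other, labelled lmna LCS, carries a changed Lmna gene, per the series title so that lamin C is the only product made. The sample titles and count columns of this group read KIKI. Each group had 3 RNA-seq libraries, and each library was made from the pooled islets of 3 mice. The sex of the mice is not given in the sources used here. Pooling leaves the spread between single mice unmeasured, and a whole islet holds several endocrine cell types with vessels, immune cells and some exocrine tissue.

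Most secreted proteins, proinsulin among them, begin with a signal peptide. The signal recognition particle (SRP) binds it on the ribosome and docks at the SRP receptor in the ER membrane. The chain then passes through the Sec61 channel, helped by the translocon-associated protein (TRAP) complex and by Sec62 and Sec63. Signal peptidase removes the signal peptide and oligosaccharyltransferase adds N-glycans. Proteins of the p24 family (the Tmed genes) sort cargo into vesicles between ER and Golgi, and KDEL receptors return escaped ER proteins. Beta cells depend on this route because insulin is a large part of what they make.

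Library depth outside the rows that collect ribosomal RNA was 19057533 to 32462401 counts in LCS and 23511554 to 28094765 in WT, and those rows (Rn45s, Lars2 and Mir6236) held 52.3 to 54.1% of all counts in LCS against 7.64 to 18.5% in WT. These ranges are far apart, so genotype and whatever goes with the ribosomal share, a difference in library preparation included, cannot be told apart in any comparison below. Of the tissue markers, 10 beta cell genes summed to 175316 to 263795 CPM in LCS and 147933 to 172357 CPM in WT, where CPM is the count relative to library size after TMM scaling between libraries. That sum is mostly Ins2 (mean 135420.0 CPM in LCS and 87436 CPM in WT) and Ins1. Of the 10 genes, 6 had positive log2 fold changes and 4 negative ones. Slc2a2, G6pc2 and Slc30a8 were at -0.77, -0.44 and -0.48, and Iapp at -0.03. Pdx1, Mafa, Nkx6-1 and Ucn3 were at 0.35, 0.25, 0.14 and 0.09. None of the 10 passed the edgeR test (by unadjusted p under 0.05, 1 was higher and 2 lower). Lmna, the changed gene, was at 62.4, 62.0 and 78.9 CPM in LCS against 61.3, 27.3 and 21.0 CPM in WT (log2 fold change 0.89, SE 0.34, edgeR adjusted p = 0.155). Its lamin A and lamin C transcripts are counted together, so it cannot check the genotype labels. Here and below 3 values of a group are in the order of replicates 1, 2 and 3. Among the 44 genes described here that could be tested, WT replicate 1 was the WT library closest to the LCS mean for 28. The same count over all tested genes was not made, so whether this is particular to these genes was not tested. WT replicate 1 was also the WT library with the highest ribosomal share, 18.5%. Without it edgeR called 12.5% of all tested genes higher and 7.68% lower, against 2.06% and 0.144% with all libraries. The part of the ribosomal share in these calls was not tested.

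The question put to these genes was whether LCS islets differ from WT islets in the machinery of early secretion. Of 45 genes, 44 had enough counts to be tested, and Tmed11, a p24 gene, had 0 counts in all 6 libraries. 2 genes with short transcripts were higher in LCS: Ost4, a small oligosaccharyltransferase subunit, and Srp14, an SRP subunit. No gene was lower (0 at the adjusted threshold, 6 at an unadjusted p under 0.05 in edgeR, and 2 by DESeq2). The other 42 did not pass the test. Across all 14539 tested genes 2.06% were called higher and 0.144% lower (edgeR quasi-likelihood test, adjusted p under 0.05), against 2 and 0 of these 44. By unadjusted p under 0.05, 11 of the 44 genes were higher and 6 were lower, where 13.3% and 10.8% of all tested genes were. LCS over WT, the log2 fold change had a median of 0.15 over the 44 genes and of 0.01 over all tested genes, with a range among the 44 from -0.62 for Ssr3 to 1.11 for Sec61b. Every LCS library lay above every WT library for 13 of the 44 genes (14.6% of all tested genes), and every LCS library lay below for 6 (12% of all tested genes). In simulated data with these libraries' depths, 6.42% of genes changed 1.5-fold and 45.7% of those changed 2-fold were called. The changed genes were drawn from all tested genes, few were changed, and the simulation held no course over transcript length. These shares are therefore not detection rates for the 44 genes, but differences of the size seen here may have been missed with 3 libraries a group.

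**Figure D1:**
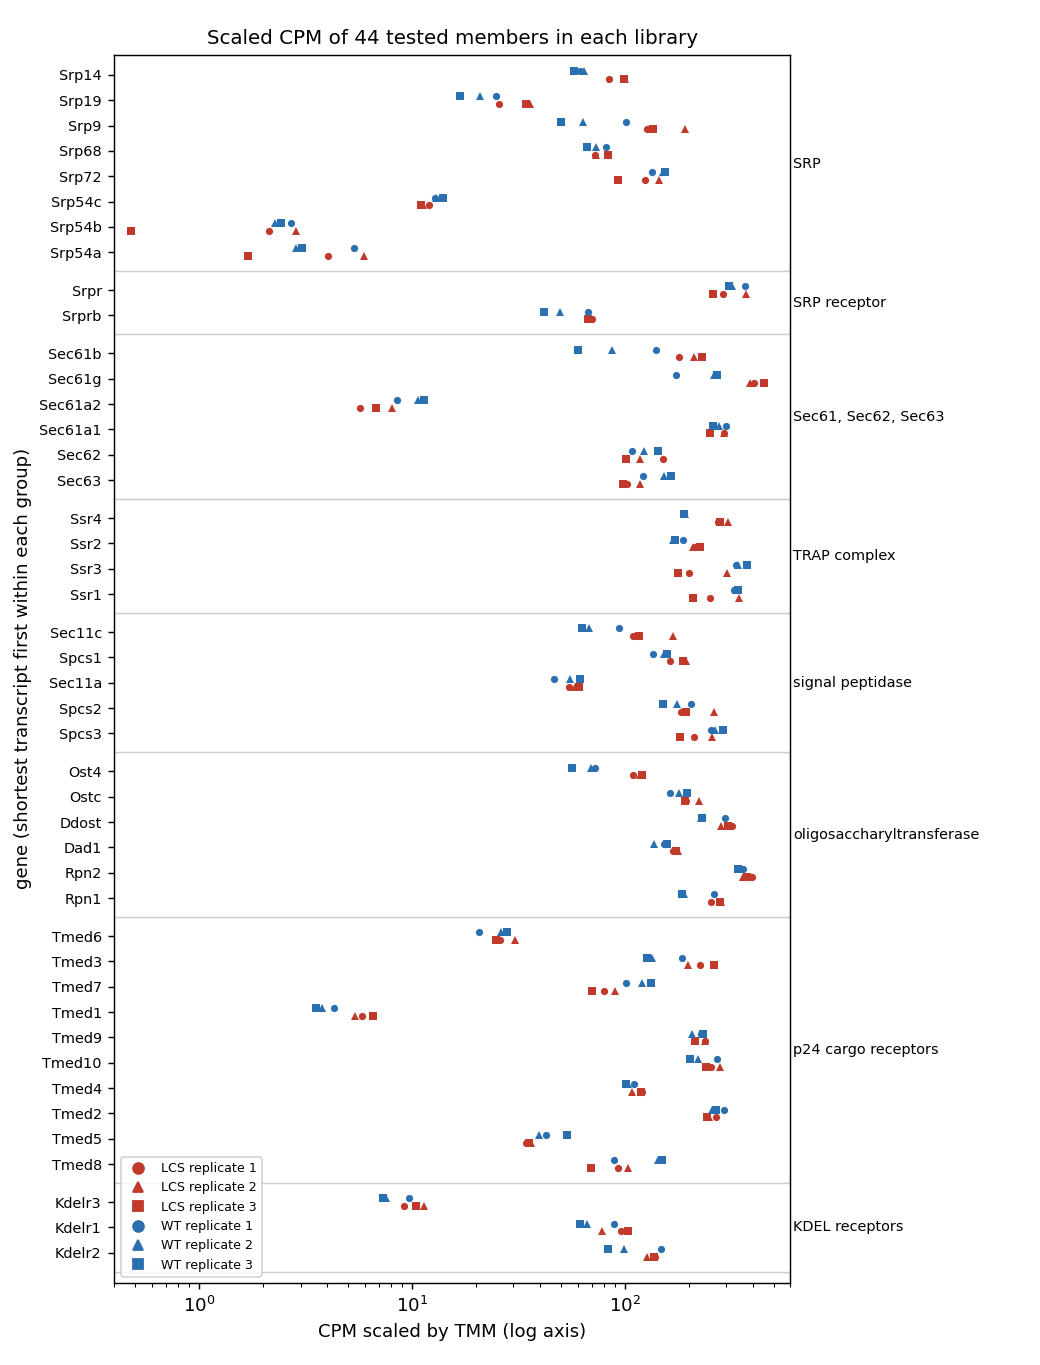
Scaled CPM (log axis) of each of the 44 tested genes in each library, LCS in red and WT in blue with 1 marker shape per replicate, grouped by role and ordered by transcript length within a group. The short genes at the top of most groups, such as Srp14, Sec61b, Ssr4 and Ost4, have their 3 LCS points to the right of their 3 WT points, and Ssr3, Sec63 and Tmed7 show the opposite order.

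SRP is built from an RNA and protein subunits. Srp9 and Srp14 form the pair that pauses translation, Srp19 helps assembly, Srp54 binds the signal peptide, and Srp68 and Srp72 form a large pair. Srp14 rose 1.54-fold in LCS, with 84.7, 99.9 and 99.5 CPM in LCS against 61.6, 64.6 and 57.7 CPM in WT. The groups did not overlap, and the log2 fold change was 0.63 (SE 0.14, edgeR adjusted p = 0.0482). Its partner Srp9 had the larger difference but more spread, with 128, 191 and 136 CPM in the LCS libraries and 101, 63.6 and 50.3 CPM in the WT libraries. WT replicate 1 lay well above the other WT libraries, and the log2 fold change of Srp9, 1.08 (SE 0.26, edgeR adjusted p = 0.0600), did not pass the test. Srp19 was at 25.8, 36.0 and 34.2 CPM in the LCS libraries and 24.9, 20.9 and 16.8 CPM in the WT libraries, again without overlap, and at 0.62 (SE 0.19, edgeR adjusted p = 0.109). The large subunits did not share this order. Srp72 had 125, 144 and 93.2 CPM in the LCS libraries and 134, 151 and 154 CPM in the WT libraries with a log2 fold change of -0.28 (SE 0.18, edgeR adjusted p = 0.359), and Srp68 was at 0.05 (SE 0.14, edgeR adjusted p = 0.849) with overlapping groups. The Srp54 copies Srp54a, Srp54b and Srp54c had log2 fold changes of 0.06, -0.42 and -0.21 at group means of 1.83 to 13.2 CPM. Srp54b, the lowest of the SRP genes by log2 fold change, had 2.13, 2.87 and 0.478 CPM in LCS against 2.70, 2.27 and 2.43 CPM in WT, with LCS replicate 3 far below the rest. Of their transcripts' 50-base stretches 75.2%, 99.8% and 93.9% also occur in transcripts of other genes, chiefly of each other, so their single counts are uncertain. For Srp14 that share is 0%, and for Srp9 it is 15.5%, shared with Gm13736.

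The call of Srp14 was narrow. It was kept in 6 of 16 alternatives and ended without LCS replicate 1 (edgeR adjusted p = 0.103), LCS replicate 2 (0.0648), LCS replicate 3 (0.15), WT replicate 2 (0.195) or WT replicate 3 (0.171), while its log2 fold change stayed between 0.58 and 0.73 over the libraries left out. With an offset for transcript length the log2 fold change of Srp14 was -0.05 (edgeR adjusted p = 0.862).

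The window before the start of Srp14 is printed because Srp14 and Ost4 were the genes called. It holds the 250 bases upstream of the RefSeq start (GRCm38.p6, chr2:118479697-118479946, minus strand), a build that differs from the mm9 named in the submitters' processing notes. Motifs known for unfolded protein response targets were searched on both strands: the ER stress element, which is CCAAT followed at a set distance by CCACG, these parts alone, and the XBP1 element TGACGTGG, whose other strand holds CCACG. The ETS factor motif CCGGAAG, common in promoters, was searched too. None of these lies in the Srp14 window, so it has no capitals.
Srp14 promoter: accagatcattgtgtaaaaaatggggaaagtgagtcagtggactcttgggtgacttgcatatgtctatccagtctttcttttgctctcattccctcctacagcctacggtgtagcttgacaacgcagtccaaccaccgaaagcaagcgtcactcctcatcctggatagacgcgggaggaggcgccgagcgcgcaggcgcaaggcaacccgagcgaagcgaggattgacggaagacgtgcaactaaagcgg
Windows were found for 34 of the 44 tested genes. The full ER stress element was in 0 of these 34 and in 0.149% of the 11446 tested genes with a window, CCACG in 19 of 34 (55.9%) and in 45.3% of those genes, CCAAT in 15 of 34 (44.1%) and in 39.9%, and CCGGAAG in 6 of 34 (17.6%) and in 14.4%. A match is a run of letters and not a measured binding site.

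The SRP receptor consists of Srpr, the subunit that meets SRP, and Srprb, its membrane anchor. Srpr had 288, 371 and 259 CPM in the LCS libraries and 366, 318 and 309.7 CPM in the WT libraries, with overlapping groups and a log2 fold change of -0.11 (SE 0.17, edgeR adjusted p = 0.707). Srprb was at 70.3, 68.8 and 67.1 CPM in the LCS libraries and 67.5, 49.6 and 41.7 CPM in the WT libraries. The LCS values of Srprb lay close together, WT replicate 1 overlapped them, and the log2 fold change was 0.38 (SE 0.18, edgeR adjusted p = 0.235). Part of the Srprb transcript (27.8% of its 50-base stretches) also belongs to the predicted gene Gm20425.

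The Sec61 channel has a pore subunit, encoded by Sec61a1 or its paralog Sec61a2, and small subunits encoded by Sec61b and Sec61g. The small subunits had higher values in LCS. Sec61b was at 179, 212 and 231 CPM in LCS against 139.9, 87.3 and 60.1 CPM in WT. All LCS libraries were above all WT libraries, whose values differed widely among themselves, and the log2 fold change was 1.11 (SE 0.27, edgeR adjusted p = 0.0623). Sec61g was the most abundant of the 44 genes per transcript length, at a mean of 425 CPM per kb. It had 403, 389 and 453 CPM in the LCS libraries and 173, 263 and 271 CPM in the WT libraries, here with WT replicate 1 the lowest, and a log2 fold change of 0.82 (SE 0.19, edgeR adjusted p = 0.0561). Pseudogenes share 41% of the 50-base stretches of Sec61b and 44.4% of those of Sec61g, so reads could have been split or lost. The pore gene Sec61a1 was level, with 294, 292 and 251 CPM in the LCS libraries and 299, 278 and 259 CPM in the WT libraries and a log2 fold change of 0.00 (SE 0.14). Sec61a2, at a far lower level per transcript length (3.74 against 87.9 CPM per kb), lay below WT in every LCS library, with 5.70, 8.05 and 6.79 CPM in the LCS libraries and 8.46, 10.7 and 11.4 CPM in the WT libraries and -0.57 (SE 0.20, edgeR adjusted p = 0.137). Of its 50-base stretches 35.8% are shared with transcripts of Nudt5. Sec62 and Sec63 assist the passage of proteins whose signal peptides need help or that arrive after synthesis. Sec63 had 102, 117 and 97.8 CPM in the LCS libraries and 122, 152 and 166 CPM in the WT libraries, with no overlap and a log2 fold change of -0.47 (SE 0.16, edgeR adjusted p = 0.124), and Sec62 was at -0.01 (SE 0.18) with overlapping groups. Without WT replicate 1, Sec61b, Sec61g, Sec61a2 and Sec63 passed the test (edgeR adjusted p = 0.00128, 0.0181, 0.0334 and 0.0234), where 12.5% of all genes were then called higher and 7.68% lower.

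TRAP is made of the products of Ssr1, Ssr2, Ssr3 and Ssr4 and helps weak signal peptides, that of proinsulin among them, to enter the channel. Its genes had differences of both signs. Ssr4 had 274, 306 and 279 CPM in LCS against 189, 192 and 189 CPM in WT. The WT values were nearly equal, no LCS library overlapped them, and the log2 fold change was 0.59 (SE 0.13, edgeR adjusted p = 0.0538), just outside the threshold. Ssr2 was at 215, 210.2 and 226 CPM in the LCS libraries and 188, 169 and 173 CPM in the WT libraries, also without overlap, with 0.30 (SE 0.13, edgeR adjusted p = 0.207). Ssr3 went the other way, with 201, 302 and 178 CPM in LCS against 333, 339.5 and 374 CPM in WT. LCS replicate 2 lay nearest to WT, and the log2 fold change of Ssr3 was -0.62 (SE 0.20, edgeR adjusted p = 0.116). Without LCS replicate 2 Ssr3 passed the test as lower at -0.85 (edgeR adjusted p = 0.0362), where 0.284% of all genes did. Ssr1 had 251, 345 and 209 CPM in the LCS libraries and 324, 332 and 341 CPM in the WT libraries, and LCS replicate 2 exceeded all WT libraries. Its log2 fold change was -0.31 (SE 0.19, edgeR adjusted p = 0.341). DESeq2 called Ssr4 higher and Ssr3 lower (adjusted p = 0.00249 and 0.0353), in a test that called 6.99% of all genes higher and 4.26% lower.

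Signal peptidase has the catalytic paralogs Sec11a and Sec11c and the subunits Spcs1, Spcs2 and Spcs3. Sec11c had the largest difference. It was at 109, 168 and 117 CPM in the LCS libraries and 94.3, 67.8 and 63.1 CPM in the WT libraries, with LCS replicate 2 the highest and no overlap, and a log2 fold change of 0.81 (SE 0.21, edgeR adjusted p = 0.0764). Sec11a had 54.7, 58.4 and 61.0 CPM in the LCS libraries and 46.3, 55.2 and 61.6 CPM in the WT libraries, overlapping values, and 0.09 (SE 0.15, edgeR adjusted p = 0.728). Spcs1 was higher in every LCS library, with 163, 195 and 187 CPM in the LCS libraries and 136, 153 and 158 CPM in the WT libraries and 0.28 (SE 0.14, edgeR adjusted p = 0.252). Spcs2 and Spcs3 overlapped between genotypes and their log2 fold changes were 0.27 with SE 0.18 and -0.32 with SE 0.16. Spcs3, the 1 negative value of the group, had 212, 256 and 181 CPM in LCS against 255, 266 and 288 CPM in WT, where LCS replicate 2 lay just above WT replicate 1. Spcs1 had the highest level of the group per transcript length, at 165 CPM per kb. No gene of signal peptidase passed the test in either direction.

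Oligosaccharyltransferase transfers the glycan to the nascent chain. Rpn1, Rpn2 and Ddost are large subunits, Dad1, Ost4 and Ostc small ones. Ost4 rose 1.75-fold, with 109, 117 and 120.0 CPM in LCS against 72.5, 69.0 and 56.6 CPM in WT. The 3 LCS values lay close together and well above the highest WT value, and the log2 fold change was 0.81 (SE 0.14, edgeR adjusted p = 0.0225). The 6 genes of this enzyme chosen by the rule had positive log2 fold changes, as had 7432 of all 14539 tested genes, and only Ost4 passed the test. With an offset for transcript length Ostc was at -0.35, and the others stayed positive. Rpn1 had 253, 282 and 280.0 CPM in the LCS libraries and 262, 190.3 and 186 CPM in the WT libraries, where WT replicate 1 lay among the LCS libraries, and 0.35 (SE 0.17, edgeR adjusted p = 0.232). Ddost was at 0.27 (SE 0.16, edgeR adjusted p = 0.322), also with WT replicate 1 overlapping. Dad1 had 168, 178 and 173 CPM in the LCS libraries and 153, 138 and 158 CPM in the WT libraries, with no overlap, and 0.21 (SE 0.13, edgeR adjusted p = 0.353). Rpn2, the smallest difference, had 395, 358 and 374 CPM in LCS against 360.3, 342 and 339 CPM in WT, which overlapped, and 0.11 (SE 0.14, edgeR adjusted p = 0.634). Ostc had the highest level of this group per transcript length (179 CPM per kb). It was at 194, 223 and 192 CPM in LCS against 162, 179.7 and 195 CPM in WT, where WT replicate 3 reached the LCS values, and its log2 fold change was 0.18 (SE 0.14, edgeR adjusted p = 0.463).

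Ost4 was called in 10 of 16 alternatives. The call of Ost4 ended without LCS replicate 1 (edgeR adjusted p = 0.0882), LCS replicate 3 (0.0835), WT replicate 2 (0.108) or WT replicate 3 (0.0869), and its log2 fold change was 0.71 to 0.88 over the libraries left out. With the length offset it was 0.18 (edgeR adjusted p = 0.481). Ost4 overlaps Agbl5, and 57% of the 50-base stretches of its longest transcript occur in transcripts of Agbl5 or Gm19774. Agbl5 itself had 11.4, 7.90 and 10.4 CPM in LCS and 12.2, 9.97 and 9.56 CPM in WT, a log2 fold change of -0.10 (SE 0.19).

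The window before the Ost4 start (GRCm38.p6, chr5:30907789-30908038, minus strand) is printed as that of the gene with the smallest p among the 44. It holds 1 match, CCACG, in capitals, and 70.8% of its bases are G or C against 54% in the Srp14 window.
Ost4 promoter: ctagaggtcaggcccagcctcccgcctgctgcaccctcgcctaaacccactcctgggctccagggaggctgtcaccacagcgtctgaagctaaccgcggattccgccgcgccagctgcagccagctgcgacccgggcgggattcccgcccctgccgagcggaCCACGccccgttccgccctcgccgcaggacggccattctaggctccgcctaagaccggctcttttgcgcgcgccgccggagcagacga

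How many of the 44 genes passed depended on the test and on single libraries, as it did for all genes, whose shares are given in parentheses. DESeq2 called 9 higher and 2 lower (all genes 6.99% and 4.26%): Ost4, Srp14, Sec61b, Srp9, Sec61g, Sec11c, Ssr4, Tmed3 and Srp19 were higher, and Ssr3 and Tmed7 lower. Limma-voom called 6 higher and 0 lower (all genes 2.54% and 0.206%), adding Ssr4, Sec61g, Sec61b and Srp9 to Ost4 and Srp14. Without WT replicate 1, edgeR called 14 higher and 4 lower (all genes 12.5% and 7.68%). The counts were 0 higher and 0 lower (all genes 0.581% and 0.0203%) without LCS replicate 1, 1 higher and 1 lower (all genes 1.77% and 0.284%) without LCS replicate 2 and 0 higher and 0 lower (all genes 0.547% and 0.00675%) without LCS replicate 3. Without WT replicate 2 they were 0 higher and 0 lower (all genes 0.748% and 0.0202%), and without WT replicate 3 0 higher and 0 lower (all genes 0.931% and 0.0405%). With WT replicate 3 as the only WT library they were 4 higher and 0 lower (all genes 5.77% and 2.16%). DESeq2 size factors gave 1 higher and 0 lower (all genes 1.95% and 0.158%), no filter on low counts 7 higher and 0 lower (all genes 2.95% and 0.663%), and a minimum mean of 10 CPM, which 39 of the genes passed, 4 higher and 0 lower (all genes 3.56% and 0.262%). Without the ribosomal rows there were 2 higher and 0 lower (all genes 2.08% and 0.145%), and among protein-coding genes alone 1 higher and 0 lower (all genes 1.69% and 0.117%). With length and GC offsets there were 0 higher and 1 lower (all genes 0.493% and 0.272%).

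The p24 proteins form hetero-oligomers that take up cargo such as GPI-anchored proteins. Of 10 tested Tmed genes none passed the test in edgeR, 2 genes were higher and 3 were lower by unadjusted p under 0.05, where 13.3% and 10.8% of all tested genes were. DESeq2, which called 6.99% of all genes higher and 4.26% lower, called Tmed3 higher (adjusted p = 0.0333) and Tmed7 lower (0.0194). These belong to the same gamma subfamily. Tmed3 had 226, 198 and 261 CPM in LCS against 186, 134 and 127 CPM in WT. Every LCS value exceeded every WT value, and the log2 fold change was 0.62 (SE 0.18, edgeR adjusted p = 0.0987). Tmed7 had 79.6, 89.9 and 70.3 CPM in LCS against 102, 121 and 133 CPM in WT. Here every LCS value lay below every WT value, and the log2 fold change was -0.57 (SE 0.16, edgeR adjusted p = 0.0867). Tmed1, of the same subfamily but at a far lower level per transcript length (3.56 against 73.6 CPM per kb), had 5.80, 5.38 and 6.54 CPM in the LCS libraries and 4.32, 3.80 and 3.55 CPM in the WT libraries and 0.60 (SE 0.20, edgeR adjusted p = 0.123). Tmed5 did not overlap either, with LCS below WT at -0.35 (SE 0.15, edgeR adjusted p = 0.198), and Tmed8, with the longest transcript of the group, was at -0.52 (SE 0.22, edgeR adjusted p = 0.192) with WT replicate 1 overlapping. Tmed2 and Tmed10, the core members of the beta and delta subfamilies, were at -0.11 (SE 0.14) and 0.16 (SE 0.16). Tmed10 had the highest level of the group per transcript length (165 CPM per kb), with 254, 279 and 239.6 CPM in LCS against 272, 219.7 and 201 CPM in WT, and WT replicate 1 lay between the LCS values. Of the 50-base stretches of Tmed10 32.4% are shared with Tmed10-ps, and of those of Tmed2 27.6% with transcripts of other genes. Tmed4, Tmed6 and Tmed9 had log2 fold changes of 0.14, 0.12 and 0.04. Without WT replicate 1 Tmed1 and Tmed3 were called higher and Tmed7 and Tmed8 lower (edgeR adjusted p = 0.045, 0.00929, 0.0165 and 0.0204), in a fit that called 12.5% of all genes higher and 7.68% lower.

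KDEL receptors bind ER proteins that end in the KDEL motif and bring them back from the Golgi. The values of Kdelr1, Kdelr2 and Kdelr3 overlapped between the genotypes. Kdelr2 had 139, 127 and 138 CPM in the LCS libraries and 149, 99.4 and 83.8 CPM in the WT libraries, with WT replicate 1 the highest of all libraries. Kdelr1 was at 96.4, 77.9 and 104 CPM in the LCS libraries and 89.0, 66.4 and 61.5 CPM in the WT libraries, with WT replicate 1 inside the LCS range. Kdelr3, the least abundant of the 3 per transcript length, had 9.16, 11.4 and 10.4 CPM in the LCS libraries and 9.65, 7.53 and 7.29 CPM in the WT libraries. The log2 fold changes were 0.36 (SE 0.18, edgeR adjusted p = 0.256) for Kdelr1, 0.28 (SE 0.20, edgeR adjusted p = 0.417) for Kdelr2 and 0.34 (SE 0.18, edgeR adjusted p = 0.288) for Kdelr3. Without WT replicate 1 they were 0.54, 0.56 and 0.48, and Kdelr1 and Kdelr2 passed the test (edgeR adjusted p = 0.0448 and 0.0301), as did 12.5% of all genes in the higher direction.

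Kdelr3 is the 1 gene of the 34 with a window that holds the XBP1 element, which was in 0.909% of the tested genes with a window. The site is shown because KDEL receptors are classical targets of the unfolded protein response. It lies 30 bases upstream of the RefSeq start (GRCm38.p6, chr15:79516362-79516401, plus strand), with the element, read on the other strand, in capitals. No GENCODE M21 transcript of Kdelr3 holds the 30 bases after that start, so the distance depends on the RefSeq start.
Kdelr3 site: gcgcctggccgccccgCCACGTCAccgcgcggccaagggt

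**Figure D2:**
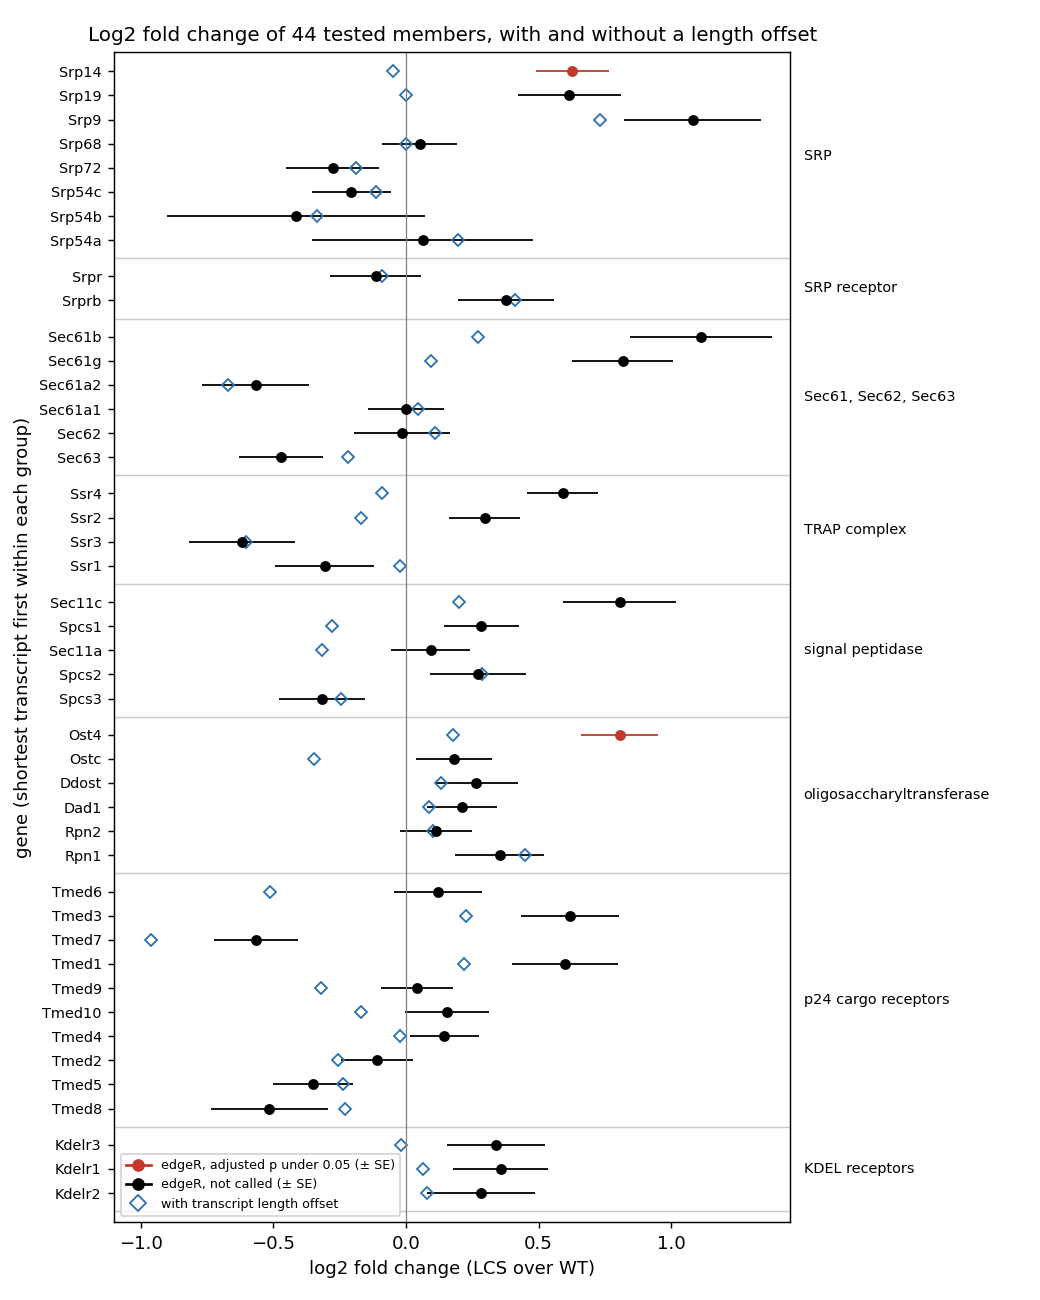
Log2 fold change (LCS over WT) with its standard error for each of the 44 tested genes, those called in red and the others in black, and the same value with a transcript length offset as an open blue diamond. With the offset Srp14 moves from 0.63 to -0.05 and Ost4 from 0.81 to 0.18, while Srp9 moves from 1.08 to 0.73 and Tmed7 from -0.57 to -0.96.

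The log2 fold changes of the 44 genes followed transcript length. Lengths were medians over GENCODE M21 transcripts paired with a curated RefSeq transcript. All 8 genes under 1000 nt had a positive log2 fold change, with a median of 0.72, and in 7 of them every LCS library lay above every WT library, as it did in 66.5% of all protein-coding genes of that length. From 1000 to 2000 nt 12 of 13 were positive (median 0.28), from 2000 to 4000 nt 9 of 19 (median -0.01), and over 4000 nt 1 of 4 (median -0.39). The medians of all tested protein-coding genes in these classes were 0.71, 0.31, -0.01 and -0.24, over 817, 2955, 5764 and 4098 genes. In the 3 shorter classes the median of the genes described here lay within 0.03 of the class median. Spearman's rho between length and log2 fold change was -0.71 over the 44 genes and -0.54 over 13634 protein-coding genes. These points share libraries and scaling, so both are descriptions. The part of length in the differences was not tested.

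**Figure D3:**
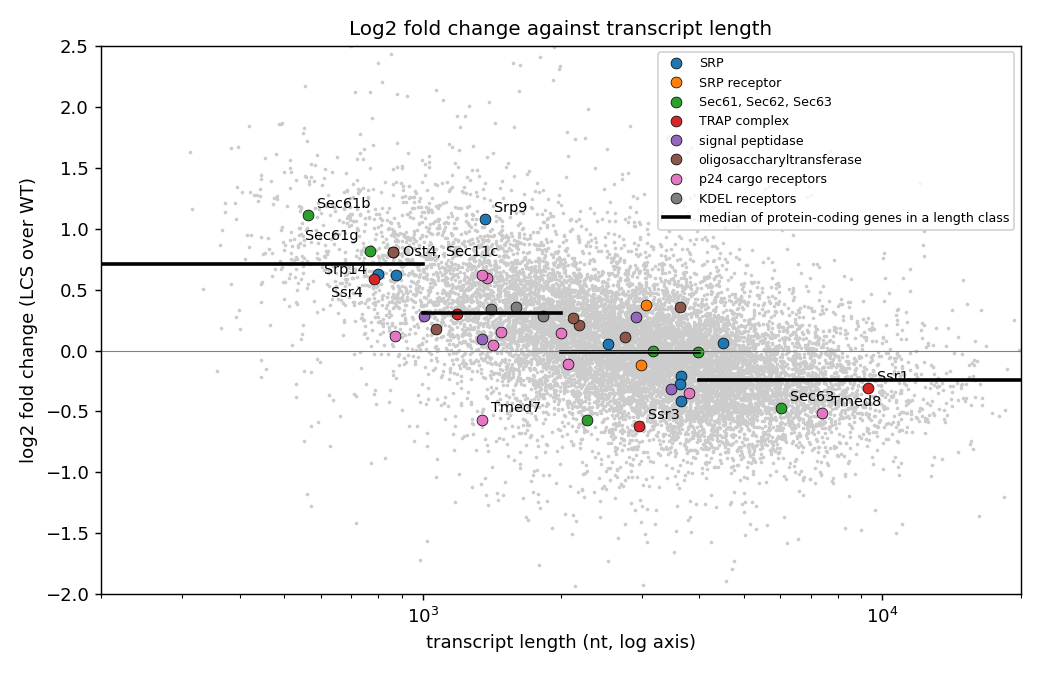
Log2 fold change (LCS over WT) against transcript length (nt, log axis) for protein-coding genes in grey and for the 44 tested genes in colours by role, and a black bar at the median of every length class. Genes beyond a log2 fold change of -2 or 2.5 are not drawn; the bars step down from 0.71 under 1000 nt to -0.24 over 4000 nt, and most coloured points lie near the bar of their class.

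The same order was seen library by library. Relative to the WT mean, the median of the 8 genes under 1000 nt was 0.54, 0.78 and 0.72 on the log2 scale in LCS replicates 1 to 3 and 0.08, 0.05 and -0.15 in WT replicates 1 to 3. The 4 genes over 4000 nt, Sec63, Srp54a, Ssr1 and Tmed8, had medians of -0.41, -0.10 and -0.75 in LCS and -0.14, 0.03 and 0.11 in WT. LCS replicate 3 had the steepest course and LCS replicate 2 the long genes closest to WT. Among all protein-coding genes LCS replicate 3 was again the steepest, from 0.91 to -0.40.

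**Figure D4:**
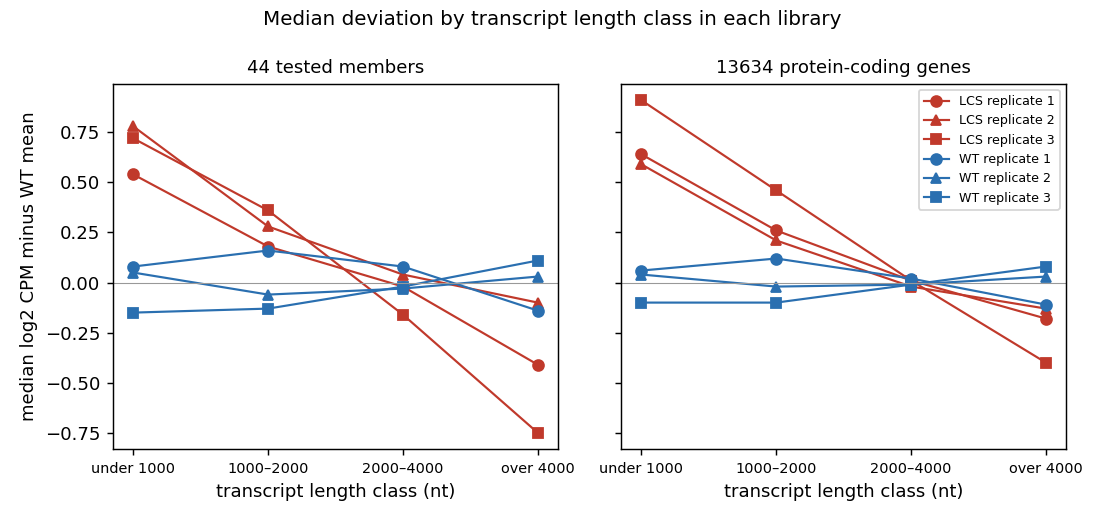
Median log2 CPM minus the WT mean in 4 transcript length classes for each library, for the 44 tested genes (left) and for protein-coding genes (right), LCS in red and WT in blue. In both panels the LCS lines start above the WT lines; on the right they end below them, and on the left LCS replicate 2 (-0.10) ends just above WT replicate 1 (-0.14). LCS replicate 3 runs from 0.72 to -0.75 on the left and from 0.91 to -0.40 on the right.

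Some genes lay far from their length class. Srp9 was higher than 95.7% of protein-coding genes of 1000 to 2000 nt, and with the length offset it kept a log2 fold change of 0.73 (edgeR adjusted p = 0.216). Tmed7 was lower than all but 2.98% of the same class. Tmed6, a p24 gene of 871 nt, was above 9.55% of the genes under 1000 nt. Among those of 2000 to 4000 nt, Ssr3 and Sec61a2 were above 5.24% and 6.32%, and Srprb and Rpn1 above 86.2% and 85.1%. With the length offset 0 of the 44 genes were called (24 of 13600 genes, 0.176%, were called higher and 3, 0.0221%, lower). With offsets for length and GC content Tmed7 was called lower (edgeR adjusted p = 0.0449), where 0.272% of all genes were.

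A ratio of 2 genes within a library does not depend on how libraries are scaled. In each of the 8 role groups the tested gene with the shortest transcript was therefore set against that with the longest. This comparison was added after the values had been seen. Such a ratio does depend on transcript length where log2 fold changes follow length. Every LCS library lay above every WT library in 66.5% of all protein-coding genes under 1000 nt and in 2.46% of those over 4000 nt. Ratios of other short and long genes were not computed, so how common such a separation is was not tested. The count ratio of Ssr4 to Ssr1 was 1.09, 0.886 and 1.33 in LCS replicates 1 to 3 and 0.583, 0.58 and 0.555 in WT replicates 1 to 3, a 1.90-fold higher ratio in LCS. Sec61b to Sec63 was 1.75, 1.80 and 2.36 in LCS replicates 1 to 3 and 1.15, 0.574 and 0.363 in WT replicates 1 to 3, the widest difference (3.15-fold). In both pairs all LCS ratios exceeded all WT ratios. Sec11c to Spcs3 was 0.514, 0.656 and 0.644 in LCS replicates 1 to 3 and 0.37, 0.255 and 0.219 in WT replicates 1 to 3, 2.19-fold higher. The ratios of Tmed6 to Tmed8 and of Ost4 to Rpn1 were 1.54-fold and 1.36-fold higher in LCS, again without overlap. Srpr and Srprb, which differ little in length (2993 and 3064 nt), gave a lower ratio in LCS (0.691 of WT), also without overlap. Kdelr3 to Kdelr2 and Srp14 to Srp54a overlapped. The exact two-sided permutation p was 0.1 for each of the 6 pairs without overlap, the smallest that 3 against 3 libraries allow, and 0.133 after adjustment over 8 pairs.

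**Figure D5:**
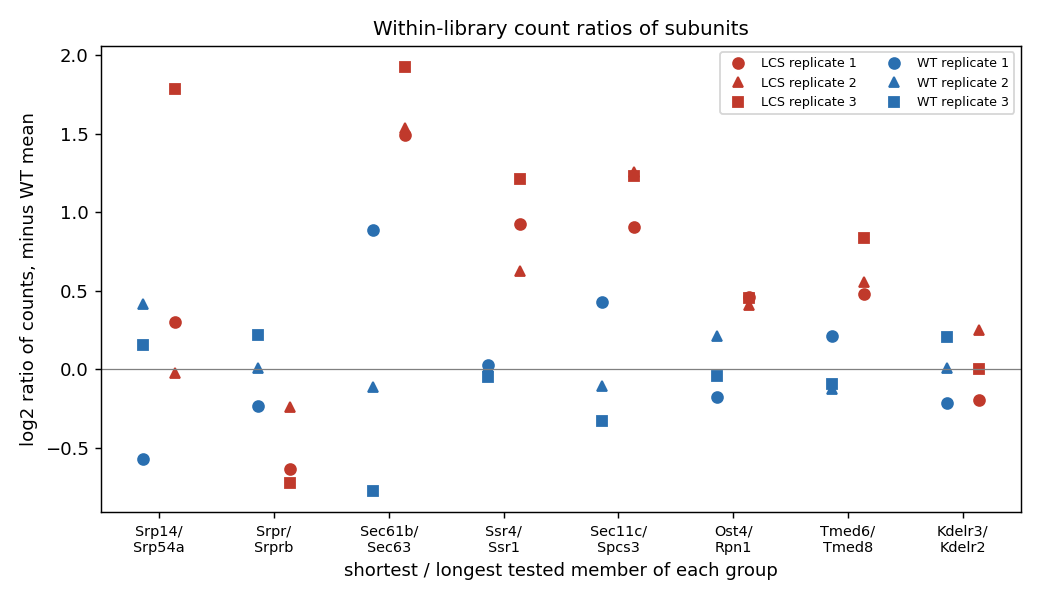
Log2 ratio of counts of the shortest to the longest tested gene in each role group, minus the WT mean, in each library, LCS in red and WT in blue. For Sec61b/Sec63, Ssr4/Ssr1, Sec11c/Spcs3, Ost4/Rpn1 and Tmed6/Tmed8 the 3 LCS points lie above the 3 WT points, and for Srpr/Srprb below.

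As a whole the set held a part of the counts that depended on the ribosomal rows. With the ribosomal rows set aside, the 45 genes held 0.996, 1.13 and 0.898% of counts in LCS replicates 1 to 3 and 1.09, 0.972 and 0.984% in WT replicates 1 to 3 (1.01% ± 0.116 and 1.02% ± 0.0649, SD, n = 3). The groups overlapped, with LCS replicate 2 the highest and LCS replicate 3 the lowest. Of all counts, those rows included, the 45 genes held 0.457, 0.541 and 0.414% in LCS and 0.890, 0.898 and 0.885% in WT (0.471% ± 0.0646 and 0.891% ± 0.00656, SD, n = 3), with no overlap.

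Other genes of the route were followed in 10 lists with 130 genes. Of the 129 tested, 1 was called higher and 0 lower by edgeR (2.06% and 0.144% of all tested genes). By unadjusted p under 0.05 they were 20 and 11 (13.3% and 10.8% of all tested genes), and by DESeq2 6 and 3 (6.99% and 4.26%). Their median log2 fold change was 0.01. The 1 called was Use1, a SNARE of Golgi-to-ER transport, at 46.0, 39.6 and 57.6 CPM in the LCS libraries and 25.1, 25.9 and 22.8 CPM in the WT libraries and 0.95 (SE 0.17, edgeR adjusted p = 0.0214). The call of Use1 ended without LCS replicate 1 (edgeR adjusted p = 0.094), LCS replicate 3 (0.0717), WT replicate 2 (0.0862) or WT replicate 3 (0.0661), and with the length offset its log2 fold change was 0.36 (edgeR adjusted p = 0.242). It also ended with length and GC offsets (0.235). Among the remaining oligosaccharyltransferase subunits, the short Tmem258 and Krtcap2 were, on the log2 fold change scale, at 0.60 (SE 0.14, edgeR adjusted p = 0.0583) and 0.96 (SE 0.25, edgeR adjusted p = 0.0753), both with no overlap, while Magt1 (4323 nt) was at -0.45 (SE 0.18, edgeR adjusted p = 0.168). The catalytic subunits Stt3a and Stt3b were at -0.37 (SE 0.18, edgeR adjusted p = 0.235) and -0.08 (SE 0.13, edgeR adjusted p = 0.756), and these 6 further subunits had 3 positive and 3 negative values. Of the partners of the channel, Tmem147 was at 0.64 (SE 0.16, edgeR adjusted p = 0.0714), Tram1, which helps chains into the membrane, at -0.44 (SE 0.14, edgeR adjusted p = 0.117) and Ccdc47 at -0.44 (SE 0.20, edgeR adjusted p = 0.222).

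In the ER membrane complex, an insertase for membrane proteins, 8 of 10 genes had positive values (median 0.40), as had 7432 of all 14539 tested genes. The smallest p belonged to Emc4 at 0.60 (SE 0.18, edgeR adjusted p = 0.103) and Emc3 at 0.51 (SE 0.16, edgeR adjusted p = 0.108) and Mmgt1 at -0.78 (SE 0.25, edgeR adjusted p = 0.112), and the highest value was that of Emc10 at 0.84. With the length offset Emc2 moved from 0.16 to -0.29 and Emc8 from -0.0034 to 0.21. All 7 genes for insertion of tail-anchored proteins were positive (median 0.28), Sgta and Get4 at 0.50 and 0.58 with edgeR adjusted p of 0.15 and 0.165. With the length offset Asna1 and Wrb were at -0.15 and -0.0001, and the other genes of this list stayed positive. The genes that build the lipid-linked glycan were evenly split, 11 positive and 11 negative, with the small Dpm3 (404 nt), which anchors dolichol-phosphate-mannose synthase, at 1.30 (SE 0.33, edgeR adjusted p = 0.0700) and Nus1 at -0.45 (SE 0.15, edgeR adjusted p = 0.127). Genes of glycan trimming and lectin chaperones had a median of -0.18, 3 of 11 being lower by unadjusted p under 0.05 (10.8% of all tested genes): Edem3 at -0.65 (SE 0.22, edgeR adjusted p = 0.131), Canx, the lectin chaperone calnexin, at -0.42 (SE 0.17, edgeR adjusted p = 0.181) and Edem1 at -0.31 (SE 0.13, edgeR adjusted p = 0.198). Their transcripts are 3127, 4281 and 5817 nt long, and with the length offset they were at -0.62, -0.26 and -0.07.

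No gene of a vesicle coat passed the test. The COPII coat, which carries cargo out of the ER, had a median of -0.19 over 14 genes, with Sec16b at -0.46 (SE 0.20, edgeR adjusted p = 0.186) and Sec24a and Sec23a at -0.38 and -0.33, and Mia3 was listed at 0 in every library. The COPI coat, which returns it, had a median of -0.12 over 11 genes, with the short Copz2 and Cope at 0.62 (SE 0.19, edgeR adjusted p = 0.109) and 0.48 (SE 0.16, edgeR adjusted p = 0.123) and Copa at -0.27. Sec16b, Sec24a and Sec23a have transcripts over 4000 nt, a class whose protein-coding genes had a median of -0.24. With the length offset these genes were at -0.30, -0.18 and -0.19, and Copz2 and Cope at 0.01 and 0.07. Among cargo receptors and SNAREs beside Use1, Yif1b was at 0.65 (SE 0.21, edgeR adjusted p = 0.117) and Sec22b at 0.46 (SE 0.18, edgeR adjusted p = 0.162). Of 21 unfolded protein response genes none was called (median 0.06). Atf4 was at 0.52 (SE 0.21, edgeR adjusted p = 0.165), and Manf, a secreted ER stress protein, at 0.71 (SE 0.29, edgeR adjusted p = 0.174) with 244, 368 and 259.8 CPM in the LCS libraries and 265, 151 and 117 CPM in the WT libraries. WT replicate 1 lay above LCS replicates 1 and 3 for Manf, as it lay among or above the LCS values for Kdelr2 and Rpn1. Atf6, a stress sensor of the ER membrane, was at -0.41 (SE 0.18, edgeR adjusted p = 0.191).

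Of 21 tested acinar markers 18 were called higher in LCS and none lower, against 2.06% and 0.144% of all tested genes. In 19 of them every LCS library lay above every WT library (14.6% of all tested genes), and 1 of 23 listed (Amy2a5) was at 0. They summed to 611 to 1054 CPM in LCS and 205 to 311 CPM in WT. Plasma and B cell markers, 8 of 11 found, had no called gene and summed to 38.3 and 48.2 CPM in LCS replicates 1 and 3, more in LCS replicate 2, and 14.2 to 41.7 in WT, with WT replicate 1 the highest WT library. Duct markers had no called gene either and summed to 840 to 1045 CPM in LCS and to 506 to 945 in WT, and delta cell markers to 1747 to 2284 and 312 to 1319 CPM, again with WT replicate 1 the highest of WT. In bulk islets a change in the number of cells of a type and a change in RNA per cell cannot be told apart. The part of these cells in the differences above was not tested. Alpha cell markers summed to 16288 to 21643 CPM in LCS and 12430 to 16303 in WT, PP cell markers to 3247 to 6029 and 838 to 1489. Macrophage markers summed to 81.8 to 98.5 and 53.9 to 70.6, endothelial markers to 195 to 220 and 152 to 192, and stellate and fibroblast markers to 32.2 to 63.3 and 31.2 to 94.3 CPM. The log2 fold changes of the 7 endothelial genes ranged from -0.02 to 0.76. None of the 7 was called, and in each the LCS and WT libraries overlapped. Outside the acinar list, Ppy (PP), Rbp4 (delta) and Lyz2 (macrophage) were called higher in LCS. Their log2 fold changes were 1.86, 0.96 and 1.48 (edgeR adjusted p = 0.0172, 0.046 and 0.0142). With the length offset they were 0.89, 0.42 and 1.10. Of the macrophage genes 5 were positive and 3 negative: Adgre1 (-0.62, every LCS library below every WT library), Csf1r (-0.16) and Cd68 (-0.03). Of the delta genes 3 were positive and 1, Ghsr, negative (-0.64). Of 5 red blood cell markers 4 were at 0 in every library.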

How the data were processed

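RNA-seq was deposited for islets of 3 LCS and 3 WT pools of 3 mice each, grouped by the labels. TRIzol and a stranded TruSeq kit served for RNA and libraries, per the labels' protocols. The submitters' processing notes name HTSeq 0.9.0, TopHat2 2.1.1, Bowtie2 2.2.9, FastQC, bcl2fastq 2.20 and the build mm9. No source used here gives the settings, the annotation or the use of strand in counting, so overlapping genes may share reads. The authors deposited raw, whole-number counts per gene. These were filtered (filterByExpr), scaled by TMM and tested with edgeR 4.0.16 in R 4.3.3 across 14539 genes with genotype as the only term; p-values were adjusted by Benjamini-Hochberg over all tested genes, calls are at an adjusted p under 0.05, and standard errors are the log2 fold change over the root of F. Members and gene lists were chosen with earlier results of these data known. Genes were named by a rule: every gene called, and in each role group the 2 with the smallest p, the extremes of fold change and the highest level per length; from each other list up to 3 with the smallest p. Values of further genes were picked after they had been seen. Alternatives were DESeq2 1.42.0 (test, size factors), limma-voom 3.58.1, other filters, no ribosomal rows, protein-coding genes only, loess offsets (span 0.5) for transcript length and GC content, and left-out libraries. Lengths were found for 95% of tested genes. The steps were tested on simulated counts in 10 draws, where 6.8% of calls fell on unchanged genes or had the wrong sign.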

Additional observations from a re-analysis of the deposited data

How the results depend on the processing

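The 44 genes, all tested genes and the 129 other genes of the route had 2, 300 and 1 called higher and 0, 21 and 0 called lower in the main test. In the same order there were 1, 284 and 1 higher and 0, 23 and 0 lower with DESeq2 size factors, 9, 937 and 6 higher and 2, 571 and 3 lower with the DESeq2 test, 6, 370 and 1 higher and 0, 30 and 0 lower with limma-voom, 7, 560 and 4 higher and 0, 126 and 0 lower with no filter on low counts. There were 4, 272 and 2 higher and 0, 20 and 0 lower with a minimum mean of 10 CPM, 1, 230 and 1 higher and 0, 16 and 0 lower with protein-coding genes only, 0, 24 and 0 higher and 0, 3 and 0 lower with the length offset, 0, 67 and 0 higher and 1, 37 and 0 lower with length and GC offsets, 4, 884 and 12 higher and 0, 331 and 1 lower with WT replicate 3 as the only WT library (a lone library assumed to vary like LCS). Leaving out each library gave 0 to 14, 81 to 1857 and 0 to 25 higher and 0 to 4, 1 to 1142 and 0 to 6 lower, the highest counts without WT replicate 1. With DESeq2 size factors the sign turned for Sec61a1 (-0.0216). With the DESeq2 test the sign turned for Sec61a1 (-0.0216). With limma-voom the sign turned for Sec61a1 (-0.0007), Srp54a (-0.0086). With no filter on low counts the sign turned for Sec61a1 (-0.0065). With a minimum mean of 10 CPM the sign turned for Sec62 (0.0447). With the ribosomal rows left out the sign turned for Sec61a1 (-0.0015). With the length offset the sign turned for Kdelr3 (-0.0172), Ostc (-0.35), Sec11a (-0.32), Sec62 (0.11), Spcs1 (-0.28), Srp14 (-0.05), Ssr2 (-0.17), Ssr4 (-0.0924), Tmed10 (-0.17), Tmed4 (-0.0244), Tmed6 (-0.51), Tmed9 (-0.32). With length and GC offsets the sign turned for Ostc (-0.14), Sec11a (-0.21), Sec61a1 (-0.0388), Sec62 (0.34), Spcs1 (-0.25), Spcs3 (0.0385), Srp54c (0.0893), Srp68 (-0.0687), Ssr1 (0.0501), Ssr2 (-0.25), Ssr4 (-0.13), Tmed10 (-0.11), Tmed5 (0.24), Tmed6 (-0.39), Tmed9 (-0.32). With WT replicate 3 as the only WT library the sign turned for Sec11a (-0.0864), Tmed6 (-0.0456), Tmed9 (-0.0264). Over the libraries left out, log2 fold changes that turned ranged from -0.0079 to 0.19 for Sec11a, -0.0517 to 0.0801 for Sec61a1, -0.16 to 0.12 for Sec62, -0.38 to 0.42 for Srp54a, -0.91 to 0.0351 for Srp54b, -0.0178 to 0.13 for Srp68, -0.25 to 0.0019 for Srpr, -0.0065 to 0.0985 for Tmed9; none of these genes was called in the main test. The Kdelr3 over Kdelr2 ratio (log2, LCS minus WT) ranged from -0.0943 to 0.13. Of 699 alternative values of single genes, 590 kept direction and call, 41 gained a call, 15 lost one and 53 changed sign. Of all counts, ribosomal rows included, the 45 genes held 0.471% in LCS and 0.891% in WT, and with those rows set aside 1.01% and 1.02%. Why calls and signs changed between the alternatives was not tested. No paired analysis was possible because the labels carry no replicate numbers shared between the groups, and the numbers 1 to 3 used here only name libraries in the order of deposit. In the simulated data, with genes drawn from all tested genes, most 1.5-fold differences were not detected with 3 libraries a group at this depth.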

Other observations

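Count ratios of paralogs were compared within libraries. The catalytic signal peptidase genes Sec11c and Sec11a had count ratios of 1.99, 2.88 and 1.91 in LCS replicates 1 to 3 and 2.04, 1.23 and 1.02 in WT replicates 1 to 3. WT replicate 1 fell inside the LCS range (exact two-sided permutation p = 0.3, log2 difference 0.70). The pore genes Sec61a2 and Sec61a1 had ratios of 0.0194, 0.0276 and 0.0271 in LCS and 0.0283, 0.0383 and 0.0442 in WT, lower in every LCS library (p = 0.1 by the same exact permutation test, the smallest possible, log2 difference -0.57). Kdelr3 to Kdelr1 overlapped, with a log2 difference of -0.02. These pairs were chosen after the values had been seen.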
